A study of Macaca mulatta with 45 samples.

Results

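The proteins of the cytosolic ribosome are described here at the level of their mRNAs in fat of rhesus monkeys. Members were genes whose symbol is RPL or RPS followed by digits and at most 1 of the letters A, X or L, with RPLP0, RPLP1, RPLP2 and RPSA, and without the RPS6 kinases and pseudogenes. A probe was kept where its detection p was under 0.05 on a share of at least 0.5 of the arrays of any group, and 68 genes with 100 probes were kept, of 12917 genes in all. The rule uses symbols and detection and no difference between groups. The array pairs probes with 72 symbols of the rule, of which RPL10, RPL23A, RPL28 and RPL34 had no kept probe. Of the 68 genes, 42 belong to the large (60S) subunit and 26 to the small (40S) subunit. The subcutaneous comparisons tested 67 of them, without RPS23, and the visceral ones 65, without RPL3L, RPL10L and RPL37, whose probes were not detected often enough there.

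The study followed 24 male rhesus monkeys of 7 to 13 years through 24 months of diet and measured RNA of fat on 45 bead arrays. After a baseline on chow, 10 animals ate a high-fat, high-sucrose diet (HFS, 42% of energy as fat, about 27% sucrose by weight) and received the polyphenol resveratrol in treats (Resv), 80 mg daily during year 1 and 480 mg daily during year 2. Another 10 ate the HFS diet with placebo treats, and 4 stayed on a standard diet (SD, 13% of energy as fat, less than 5% sucrose) with placebo treats. At 24 months subcutaneous fat gave 4 Resv, 5 HFS and 2 SD arrays, and visceral fat gave 4 Resv, 4 HFS and 2 SD arrays. At baseline, before any resveratrol, subcutaneous fat gave 10 Resv, 10 HFS and 4 SD arrays, named by the later diet, and visceral fat of that time was not analysed here. Each array was of 1 animal, as the column names show.

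A ribosome joins a small subunit, which reads the mRNA, to a large subunit, which forms the peptide bond and passes the new chain through a tunnel. The mRNAs of its proteins begin with a short pyrimidine tract, the TOP motif, through which the TOR kinase sets how much they are translated in response to nutrients. Loss of single ribosomal proteins stalls assembly, and in people mutations in several of them cause Diamond-Blackfan anaemia, a failure of red cell production.

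Ribosomal protein mRNAs were among the brightest signals of the fat. A mean level above 12 on the log2 scale was reached by 39 of the 68 genes, or 57.4%, against 2.69% of all genes. The arrays carry probes of human sequence, so a level depends on the probe as well as on the mRNA, and levels are compared between arrays for 1 gene and not between genes. Within groups the members varied by a median SD of 0.30, against 0.34 for all genes, and 44 of 68 lay below the median of all genes. RPS6, the substrate of the S6 kinases below TOR, was among the even ones. It averaged 13.95 ± 0.18 on Resv arrays (SD, n = 4) and 13.79 ± 0.08 on HFS arrays (n = 5) of subcutaneous fat at 24 months. For Resv minus HFS the probe used stood at 0.16 and the second RPS6 probe, detected on all 45 arrays, at -0.23. RPS18, a protein of the head of the small subunit and often a reference gene in fat, averaged 13.21 ± 0.24 on those Resv arrays and 13.38 ± 0.20 on those HFS arrays. RPL13A, another common reference gene, averaged 10.40 ± 0.17 on the Resv and 10.60 ± 0.28 on the HFS arrays. RPS4X, the X-linked copy of a small-subunit protein, averaged 12.43 ± 0.14 on the Resv and 12.71 ± 0.12 on the HFS arrays. RPL11, which with RPL5 and the 5S RNA can bind MDM2, averaged 13.71 ± 0.37 on the Resv and 13.83 ± 0.08 on the HFS arrays. None of these 5 differences passed the test described below.

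Of the paralogs, RPL3L and RPL10L were near the detection limit. RPL3L, the form of muscle, was detected on 0 of 4 Resv, 0 of 5 HFS and 1 of 2 SD arrays of subcutaneous fat at 24 months. RPL10L, a testis form, was detected on 3 of 4 Resv and 2 of 5 HFS arrays there. RPL39L, another form known from testis, averaged 7.08 ± 0.49 on the Resv and 6.87 ± 0.45 on the HFS arrays. RPS27L, which p53 can induce, was bright, at 12.47 ± 0.38 on the Resv and 12.70 ± 0.12 on the HFS arrays. The least variable member was RPS23, a decoding-site protein, with an SD of 0.11, but its probe sat near background, with a mean level of 4.70.

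Members differed in how far they followed the rest of the family from array to array. The correlation of a member with the median of the members ran from -0.42 for RPL3 to 0.89 for RPL36 over the 45 arrays with group means removed, which share their normalization. It was 0.88 for RPL38, 0.85 for RPL30, 0.84 for RPS18, 0.79 for RPS10 and 0.72 for RPS19. The median Pearson correlation between pairs of members was 0.18. The 5 other genes whose profile was most like the median of the members were ACTG1, C19orf53, TOMM7, PAM16 and SLIRP, with correlations of 0.92, 0.89, 0.87, 0.87 and 0.86 over 45 arrays.

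Arrays differed in ways that touch the comparisons. On Resv arrays of subcutaneous fat at 24 months 17117 to 18673 probes were detected, against 15712 to 16322 on HFS arrays, so these groups did not overlap in this measure. The values of the subcutaneous arrays were exported in 2 formats: 19 arrays, including all at 24 months and 8 at baseline, with many decimals, and 16 baseline arrays with 1 decimal and a higher median intensity (77.8 to 97.3 against at least 48.5 in the first format). The 10 visceral arrays had median intensities of 55.5 to 62.2 and were treated as a set of their own, so depot and array set cannot be told apart. Of the adipocyte markers FABP4, LEP, PLIN1, CIDEC and LIPE were detected on all 45 arrays and LPL on 43, while ADIPOQ was detected on 5. In bulk tissue fewer cells of a type and less RNA per cell cannot be told apart.

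The comparison of Resv with HFS in subcutaneous fat at 24 months asks what resveratrol changed under the fat-rich diet. RPS19, RPS10 and RPS3, which lie in the head of the small subunit, were lower on Resv than on HFS arrays, and no ribosomal protein gene was called higher. They were 3 of 67 members tested (an adjusted p under 0.05 in limma's moderated test was called a pass). Of all genes 0.272% passed in that direction, 1.96% in the other and 2.23% in either. The 3 genes were among 11 measured head proteins, a list chosen with earlier results of these data known, so no pattern of the head is read. RPS18, also of the head, stood at -0.17. Outside the head RPL36 (-0.70) and RPL12 (-0.67) were also lower without passing, and other members were higher, as given below. RPS19, which matures the 18S RNA and is the gene most often mutated in Diamond-Blackfan anaemia, read 13.28, 13.30, 13.32 and 12.76 on the Resv arrays, against 13.87, 13.75, 13.98, 13.77 and 13.73 on the HFS arrays. Every Resv array lay below every HFS array, and 1 Resv array, replicate 4, lay well below the other 3. The difference was -0.65 ± 0.14 (SE), a level 0.635 times that of HFS (adjusted p = 0.00462).

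RPS10, another head protein mutated in that anaemia, read 13.54, 13.31, 13.55 and 12.92 on the Resv arrays, against 13.94, 13.69, 13.83, 13.89 and 13.92 on the HFS arrays. The groups did not overlap, and replicate 4 of Resv was again the lowest. The difference was -0.52 ± 0.14 (adjusted p = 0.0298). RPS3, which lines the entry of the mRNA channel, read 12.14, 11.96, 12.61 and 11.11 on the Resv arrays, against 13.02, 12.72, 12.88, 13.18 and 12.77 on the HFS arrays. These groups did not overlap either, and the difference was -0.96 ± 0.26 (adjusted p = 0.0442).

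**Figure D1:**
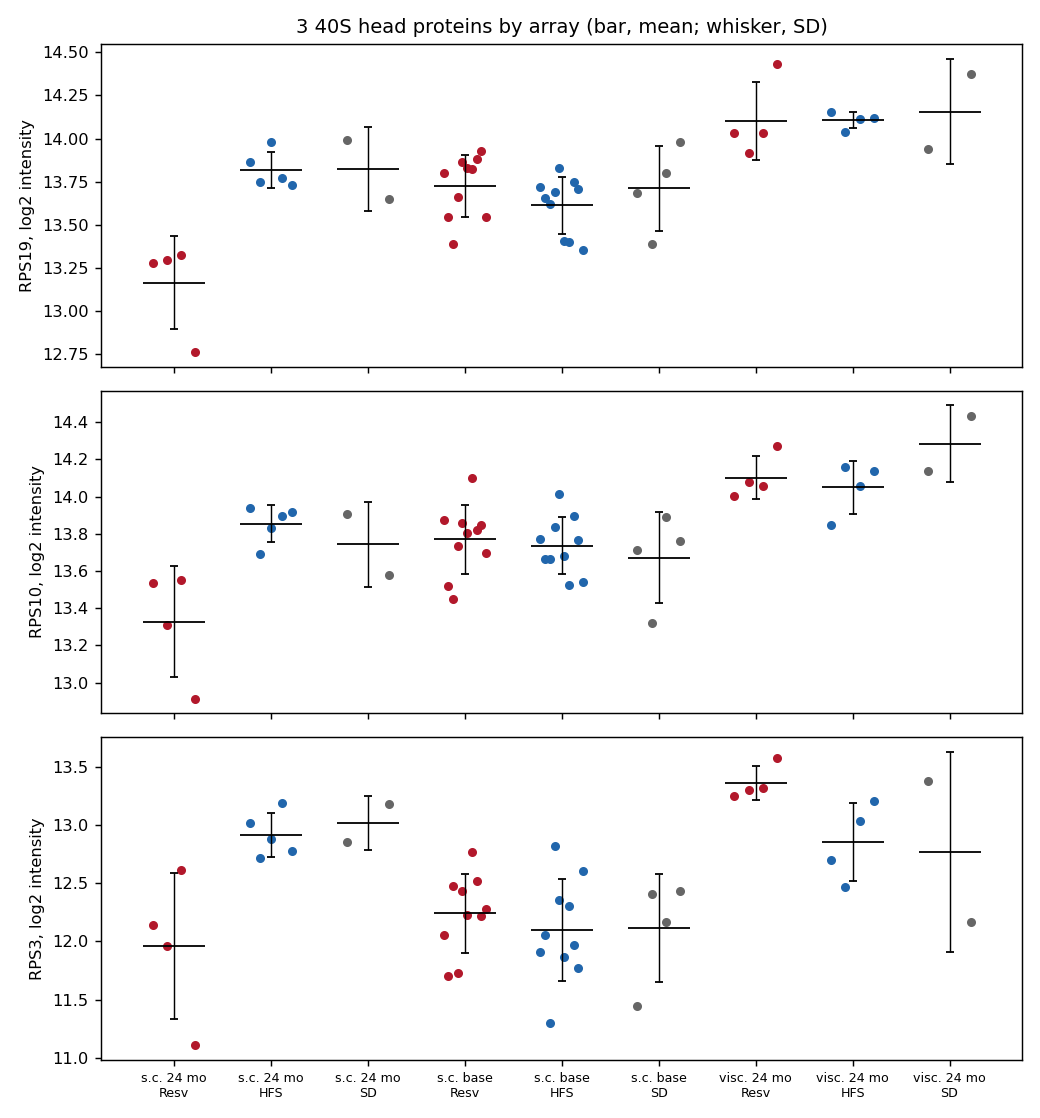
Log2 intensity (vertical axis) of RPS19, RPS10 and RPS3 on each of 45 arrays, by fat depot, month and diet; points are arrays, bars means and whiskers SD. The 4 Resv arrays of subcutaneous fat at 24 months lie below the 5 HFS arrays for each gene, with 1 Resv array lowest in each, while in visceral fat RPS3 is higher on the 4 Resv arrays than on the 4 HFS arrays and the others overlap.

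These calls rested on few arrays. Of the 9 fits that left out 1 array RPS19 passed in 8, RPS10 in 3 and RPS3 in 1. Without Resv replicate 4 none of the 3 genes passed: RPS19 stood at -0.52 (adjusted p = 0.0657), RPS10 at -0.39 (adjusted p = 0.297) and RPS3 at -0.67 (adjusted p = 0.425). With the number of detected probes as a covariate RPS19 stood at -0.59 (adjusted p = 0.155), and 0 of 67 members passed. With median scaling in place of quantile normalization none of the 3 passed either: RPS19 stood at -0.33 (adjusted p = 0.532), RPS10 at -0.20 (adjusted p = 0.725) and RPS3 at -0.51 (adjusted p = 0.427).

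Across the family the median was also below 0. The median difference was -0.16 over the 67 members, -0.28 over the 25 of the small and -0.11 over the 42 of the large subunit, against -0.04 over all genes. Among members with a mean level over 12 the median was -0.23 (n = 38), against 0.03 for other genes that bright (n = 315). The sign depended on scaling. With median scaling in place of quantile normalization the members' median was 0.16 and that of all genes 0.37, so the members lay 0.22 below the rest, and 4 members passed as higher and 0 as lower, RPL24 (1.64, adjusted p = 0.00432) and RPL7A (1.35, adjusted p = 0.0147) among the higher ones. With the deposited scores 3 passed as higher and 22 as lower. The share of all genes that passed under each alternative is not given, here or below. Such counts therefore do not set the members apart from other genes. Per array the median of the members was -0.08, 0.04, -0.13 and -0.49 on the Resv arrays, against 0.05, -0.08, 0.02, 0.02 and 0.06 on the HFS arrays. The groups overlapped, and without Resv replicate 4 the median difference was -0.05. That array had 18673 detected probes, the most of any array at 24 months.

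Other lists moved beside these differences. The mean level of the immediate early genes, which handling of tissue can induce, was 8.09, 8.57, 9.02 and 9.48 on the Resv arrays, against 8.68, 8.08, 8.47, 8.56 and 7.75 on the HFS arrays, and highest on replicate 4 of Resv. It was 9.72 on SD replicate 2, whose median of the members was -0.26. The mean level of 7 fibroblast markers had a median of 11.13 on the Resv and 10.02 on the HFS arrays, with ranges of 10.02 to 11.52 and 9.75 to 11.13. Of these COL3A1, a fibrillar collagen, averaged 9.23 ± 1.001 on the Resv and 7.12 ± 0.88 on the HFS arrays (adjusted p = 0.0254). The part of handling, of cell make-up and of detection in the differences of the ribosomal protein genes was not tested.

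**Figure D2:**
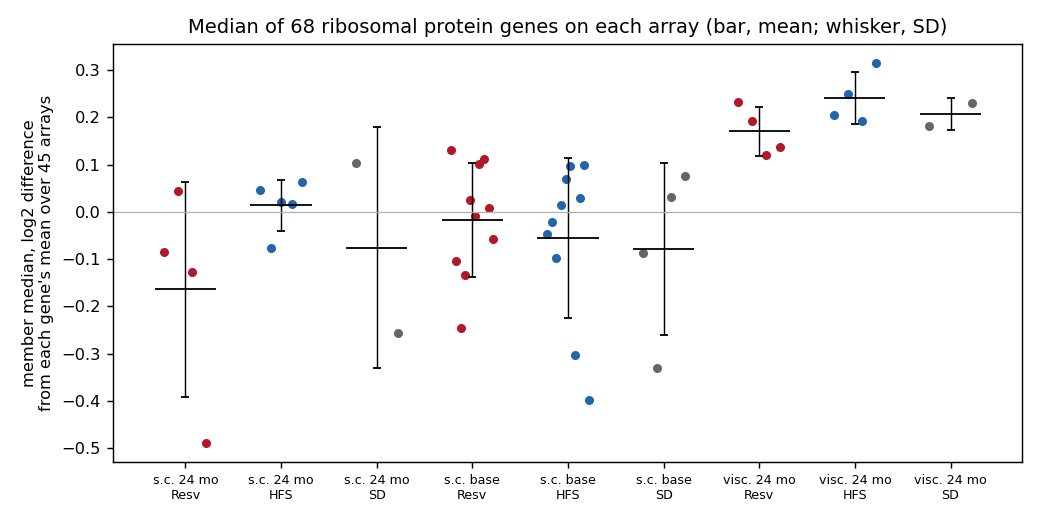
Median over 68 ribosomal protein genes of the log2 difference from each gene's mean (vertical axis) on each array, by depot, month and diet; bars are means and whiskers SD. The 10 visceral arrays lie between 0.12 and 0.31, while subcutaneous arrays reach 0.13 at most and go down to -0.49.

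Some dimmer members pointed the other way. RPL24, which bridges the subunits, read 7.46, 7.42, 7.48 and 6.82 on the Resv arrays, against 7.04 on replicate 1 and 5.89 to 5.997 on the other 4 HFS arrays, a difference of 1.13 ± 0.33 (adjusted p = 0.0636). Only HFS replicate 1 reached into the Resv range. RPL7A, a large-subunit protein, read 10.41, 10.29, 10.29 and 10.08 on the Resv arrays, against 9.63, 9.61, 9.38, 9.49 and 9.45 on the HFS arrays, a difference of 0.75 ± 0.27 (adjusted p = 0.165). The groups did not overlap, and the test was not passed. How often groups did not overlap was not counted over all genes, here or elsewhere, so a lack of overlap only describes the arrays. RPS13, a small-subunit protein, differed by 0.70 ± 0.28 (adjusted p = 0.226), with groups that overlapped.

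The comparison over time within Resv animals asks how subcutaneous fat at 24 months differed from the same diet group at baseline. Of 67 members 3 rose and 8 fell, while 6.92% of all genes rose and 4.45% fell (11.4% in either direction). The members that rose were dim, with mean levels between 5.92 and 9.13, and those that fell were bright, between 12.0 and 13.9. RPL24 rose, at 7.46, 7.42, 7.48 and 6.82 at 24 months, against 4.48, 5.85 and 6.50 (lowest, median, highest of 10) at baseline. The groups did not overlap, the difference was 1.51 ± 0.29 (adjusted p = 6.7e-04), and its probe was detected on 8 of the 10 baseline arrays. RPL7A rose by 1.22 ± 0.24 (adjusted p = 7.9e-04) and RPL5, which with RPL11 carries the 5S RNA, by 0.85 ± 0.29 (adjusted p = 0.0499).

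The falls were led by RPS26, which sits at the mRNA exit, at -0.77 ± 0.19 (adjusted p = 0.00666). RPS15A of the small subunit differed by -0.72 ± 0.21 (adjusted p = 0.0257), and RPL12, at the base of the stalk that recruits translation factors, by -0.72 ± 0.20 (adjusted p = 0.0192). RPL10A, the protein of the L1 stalk, fell by 0.60 ± 0.15 (adjusted p = 0.00787), RPL30 by 0.56 ± 0.19 (adjusted p = 0.0454) and RPS19 by 0.56 ± 0.12 (adjusted p = 0.00192). Of the 11 passing members 4 had several kept probes, and in 1 of the 4, RPL12, all probes had 1 sign. The second probe of RPL10A, detected on all 45 arrays, stood at 0.15. The dim second probe of RPS26, detected on 34 arrays, stood at 0.21, and of the other two probes of RPS15A the brighter stood at -0.56 and the dim one, detected on 6 arrays, at 0.61. The other falls were of RPS10 and RPL19, outside the naming rule and named after their values were seen.

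The subcutaneous arrays at 24 months all had an array of the same animal at baseline, so each animal could be set against itself. RPL24 was higher at 24 months in 4 of 4 Resv animals, by 0.48 to 2.45, and RPL7A in 4 of 4, by 0.50 to 0.78. RPS19 was lower in 4 of 4, by changes of -1.17 to -0.06, RPS26 in 4 of 4 and RPS10 in 3 of 4. RPS3 was higher in 3 of 4 Resv animals and lower in 1, with changes from -1.11 to 0.26. In HFS animals RPS3 was higher in 5 of 5, by 0.36 to 1.58. RPS26 was also lower in 5 of 5 HFS animals and 2 of 2 SD animals, so a lower level was seen on each diet. RPL7A was likewise higher in 5 of 5 HFS animals and 2 of 2 SD animals, and RPL24 in 3 of 5 HFS animals and 2 of 2 SD animals. In a fit with the animal as a block 3 members passed, 2 higher and 1 lower, among them RPL24 (1.39, adjusted p = 0.0181) and RPL7A (0.64, adjusted p = 0.0292), while RPS19 did not (-0.50, adjusted p = 0.0760). Within the array set that holds all 24-month arrays 1 member passed, RPL24 (1.54, adjusted p = 0.0452), and RPS19 stood at -0.41 (adjusted p = 0.149). With the number of detected probes as a covariate 0 members passed. With median scaling 4 members passed as higher and 0 as lower. Beside these changes, markers of macrophages were higher at 24 months in 3 of 7 cases, with a median of 1.44 over the list. Of 7 fibroblast markers 2 were higher, while 6.92% of all genes were higher. Of the 10 baseline Resv arrays 7 were of the other array set. The part of these markers in the result was not tested.

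**Figure D3:**
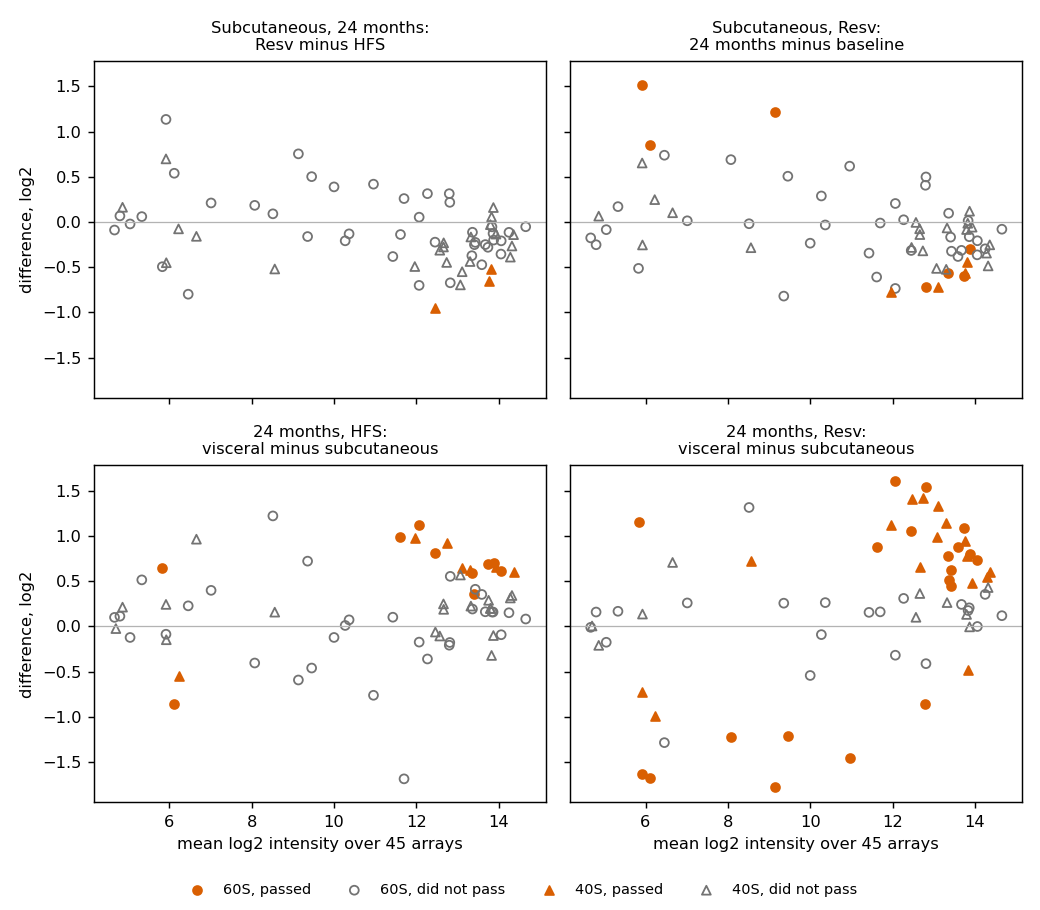
Difference in log2 intensity (vertical axis) of each ribosomal protein gene against its mean log2 intensity over 45 arrays (horizontal axis) in 4 comparisons; circles are 60S and triangles 40S genes, filled where the adjusted p was under 0.05. Bright genes lie mostly below 0 in the upper panels and above 0 in the lower ones, while the filled points below a level of 12 in the upper right panel, and most of those in the lower right panel, lie mostly on the other side of 0.

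In HFS animals 0 of 67 members passed over time in limma while 1.01% of all genes did, and 7 members had an unadjusted p under 0.05, as had 14.7% of all genes. RPS3 came nearest, with 13.02, 12.72, 12.88, 13.18 and 12.77 at 24 months, against 11.30, 12.01 and 12.82 (lowest, median, highest of 10) at baseline, a difference of 0.82 ± 0.21 (adjusted p = 0.0524). Each of the 5 animals was higher at 24 months than at its own baseline. RPS7 of the small subunit differed by 0.51 ± 0.16 (adjusted p = 0.0956), RPL7A by 0.61 ± 0.22 (adjusted p = 0.167) and RPL10A by -0.40 ± 0.14 (adjusted p = 0.149).

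Whether the change over time differed between the diets was tested directly. RPS19 passed, with a change in Resv that was 0.77 ± 0.16 below that in HFS on the log2 scale (adjusted p = 0.0106), as 1 of 67 members, while 0.066% of all genes passed as lower, 0.775% as higher and 0.841% in either direction. Within the array set of the 24-month arrays it stood at -0.57 (adjusted p = 0.592), and without Resv replicate 4 at -0.63 (adjusted p = 0.0922). With median scaling it stood at -0.33 (adjusted p = 0.545), while RPL24 passed at 1.69 (adjusted p = 0.0218). With quantile normalization RPS3 (-1.10 ± 0.32, adjusted p = 0.102), RPS10 (-0.56 ± 0.16, adjusted p = 0.108) and RPL24 (1.09 ± 0.40, adjusted p = 0.258) did not pass. At baseline, before resveratrol, 0 of 67 members passed between the groups later given Resv and HFS in limma, and 0% of all genes did. An unadjusted p under 0.05 was reached by 2 members and 2.37% of all genes.

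In visceral fat the same comparison of Resv with HFS gave 0 of 65 members in limma, and 0% of all genes passed. An unadjusted p under 0.05 was reached by 5 members and by 23.7% of all genes. The median difference was -0.10 over the members and -0.08 over all genes. RPS14, of the small-subunit platform, differed by -0.31 ± 0.12 (adjusted p = 0.166) and RPS7 by -0.52 ± 0.22 (adjusted p = 0.178). RPL12 differed by 0.32 ± 0.13 (adjusted p = 0.180) and RPS3 by 0.51 ± 0.24 (adjusted p = 0.228). RPS3 read 13.25, 13.30, 13.31 and 13.58 on the Resv arrays, against 12.70, 12.46, 13.03 and 13.21 on the HFS arrays. These groups did not overlap, and the test was not passed. The visceral Resv arrays had 15153 to 16839 detected probes, against 15039 to 15414 on the HFS arrays, and with that number as a covariate the difference in RPS3 was 0.14 (adjusted p = 0.929). The effect of Resv on RPS3 differed between the depots, by 1.47 ± 0.38 (visceral minus subcutaneous, adjusted p = 0.0302). This was 1 of 68 members, while 1.05% of all genes passed in that direction, 1.66% in the other and 2.7% in either. The count of members was thus near the share of all genes. RPS3 passed in 9 of the 17 fits that left out 1 array, with adjusted p between 0.0120 and 0.0960. It did not pass without subcutaneous HFS replicate 4, subcutaneous Resv replicates 2 or 4, visceral HFS replicates 1 or 2, or visceral Resv replicates 2, 3 or 4. With median scaling it stood at 0.98 (adjusted p = 0.29). RPS19 (0.65 ± 0.19, adjusted p = 0.0567) and RPL12 (0.99 ± 0.31, adjusted p = 0.0731) did not pass.

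The largest differences in visceral fat were of 2 large-subunit genes. RPL14 read 4.55, 4.54, 6.19 and 4.43 on the Resv arrays, against 7.12, 8.29, 6.78 and 6.77 on the HFS arrays, and was detected on 1 of the 4 Resv and 4 of the 4 HFS arrays. The groups did not overlap, and the test was not passed (-2.31 ± 0.46, adjusted p = 0.102). RPL18 read 12.46, 13.04, 12.10 and 11.99 on the Resv arrays, against 12.08, 9.74, 9.76 and 9.60 on the HFS arrays (2.11 ± 0.67, adjusted p = 0.116), with 1 HFS array among the Resv arrays. The same 2 genes led the baseline comparison of the 2 groups, at -1.40 ± 0.53 for RPL14 and 1.24 ± 0.55 for RPL18 (neither passed), when no animal had received resveratrol.

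Some genes differed far more between animals than within them over time in subcutaneous fat. In RPLP2, RPL18, RPL14, RPL13 and RPS16 the SD between animals at baseline was over 2 times the mean size of the change in the same animal over 24 months, as it was for 2.58% of all genes. From subcutaneous baseline to visceral fat of the same animal, RPL13 changed by 0.998 on average, above its baseline SD of 0.806. RPLP2 changed there by up to -2.45 in 1 animal. RPLP2, an acidic protein of the stalk, was the most variable member, with a within-group SD of 1.95 and levels between 8.06 and 14.6. Its arrays fell on both sides of a gap between 12.8 and 13.8, with 26 arrays below and 19 above. All 11 animals measured at both times in subcutaneous fat stayed on their side, as did 9 of 9 animals with visceral fat and a baseline array.

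RPL18 had its gap between 10.7 and 12.0, with 17 arrays below and 28 above, and again 11 of 11 animals over time and 9 of 9 across depots kept their side. RPL14 had a gap between 4.78 and 5.48, with 13 arrays below and 32 above, kept by 8 of 11 and 9 of 9 animals. The 3 animals that changed side over time were all Resv animals, 3 of the 4 measured. They read 5.83, 5.66 and 5.48 at 24 months, against 4.78, 4.71 and 4.55 at baseline. Only 1 other animal with both times started below the gap, an HFS animal with 4.55 at baseline and 4.51 at 24 months. Which animals could cross upward was thus nearly set at baseline. The RPL14 probe was detected on 32 arrays, and its low values sat near background. The Resv arrays at 24 months also had more detected probes than the HFS arrays, as given above. A part of resveratrol in these changes of side was not tested. RPL13 had 41 arrays below its gap and 4 above, and RPS16 had 3 below and 42 above, too few on 1 side to read anything from the sides kept. Each of RPLP2 and RPL18 was read by 1 kept probe, so no other probe could be set beside it. Why levels differed between animals was not tested.

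**Figure D4:**
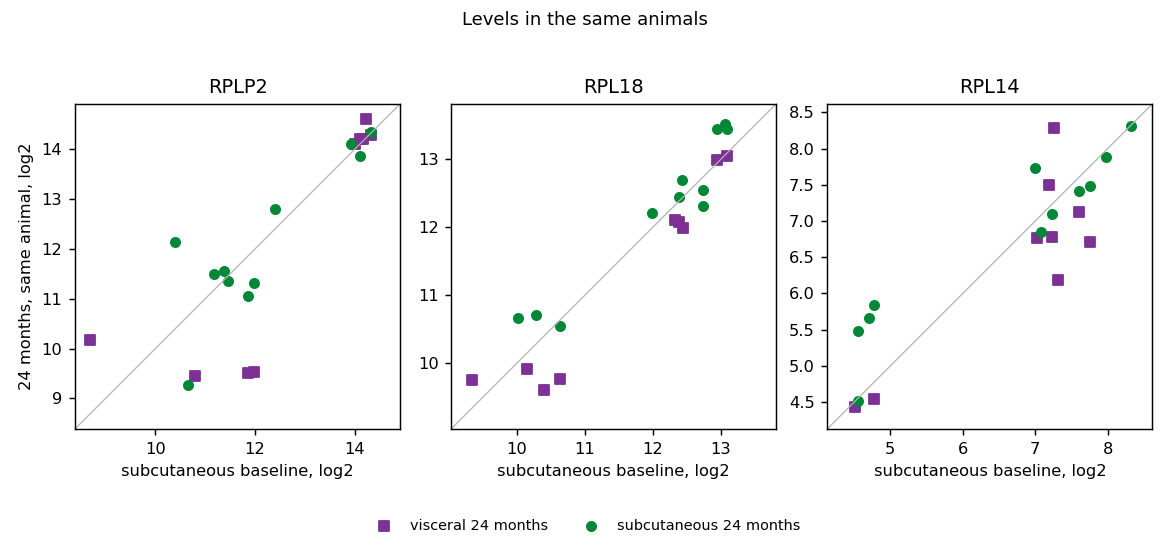
Log2 intensity of RPLP2, RPL18 and RPL14 at 24 months in visceral (squares) or subcutaneous fat (circles), on the vertical axis, against subcutaneous baseline fat of the same animal on the horizontal axis, with the line of equality. Animals keep to the high or the low cloud of RPLP2 and RPL18 in every pair. The genes were chosen for small changes over time in the subcutaneous pairs shown.

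Diet alone left no ribosomal protein gene past the test. HFS against SD gave 0 of 65 members in visceral fat in limma, where 0.00858% of all genes passed, and 0 of 67 in subcutaneous fat at 24 months, where 0% did. An unadjusted p under 0.05 was reached by 1 member in each, against 4.91% of all genes in visceral and 1.89% in subcutaneous fat. Only 2 SD arrays stood in each comparison. In visceral fat RPL39, a protein of the tunnel wall, differed by 0.69 ± 0.30 and RPS27 by 0.29 ± 0.19 (adjusted p = 0.901 for each), while RPS10 differed by -0.23 ± 0.15 (adjusted p = 0.901). In subcutaneous fat RPS26 differed by 0.67 ± 0.27 and RPLP2 by 2.09 ± 1.36 (neither passed). These values rested on single SD arrays. In visceral fat RPL39 stood at 0.04 without SD replicate 2 and at 1.34 without SD replicate 1, and RPS10 at -0.09 and -0.38. In subcutaneous fat RPS26 stood at 0.29 without SD replicate 2 and at 1.05 without SD replicate 1, and RPLP2 at 1.07 and 3.12. The median over members in subcutaneous fat was 0.12, and without SD replicate 2 it was -0.08.

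The depots differed most. In Resv animals at 24 months 26 members were higher and 10 lower in visceral than in subcutaneous fat, of 68, while 20.1% of all genes were higher and 15.8% lower (35.8% in either direction). In HFS animals 15 were higher and 2 lower, while 11.2% of all genes were higher and 7.52% lower (18.7% in either direction). The median over members was 0.26 in Resv and 0.19 in HFS animals, against 0.06 and 0.05 over all genes. It was positive under each scaling tried, from 0.245 to 0.425 in Resv and from 0.05 to 0.60 in HFS animals. The median over all genes moved as well. In HFS animals it was 0.03 with the deposited scores, where that of the members was 0.05, and 0.14 with median scaling, where that of the members was 0.60. In Resv animals it was 0.05 with the scores, where that of the members was 0.425.

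RPL36, a large-subunit protein, read 12.84, 12.83, 12.95 and 12.83 on visceral arrays of Resv animals, against 11.60, 11.61, 11.61 and 10.18 on their subcutaneous arrays. In HFS animals it read 13.08, 13.08, 13.16 and 12.94 on visceral arrays, against 11.75, 11.68, 12.39, 12.18 and 11.77 on subcutaneous arrays. No visceral array overlapped with a subcutaneous one, and the differences were 1.61 ± 0.28 in Resv (adjusted p = 2.4e-05) and 1.12 ± 0.27 in HFS (adjusted p = 0.00252). RPS9, a small-subunit protein near the mRNA entry, was higher by 1.42 ± 0.26 in Resv (adjusted p = 5.5e-05) and by 0.92 ± 0.25 in HFS (adjusted p = 0.0079). RPL12 of the stalk base was higher by 1.54 ± 0.23 in Resv (adjusted p = 1.4e-06). RPS3 (1.40 ± 0.28), RPS15A (1.33 ± 0.24) and RPL29 (1.15 ± 0.23) completed the 6 largest rises in Resv animals.

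In HFS animals the leading genes also held RPL39 of the tunnel wall, at 0.99 ± 0.31 (adjusted p = 0.0225), and RPS26, at 0.98 ± 0.22 (adjusted p = 0.00126). RPL8, next to the peptidyl transferase centre, differed by 0.81 ± 0.19 (adjusted p = 0.00201). RPL19, at the tunnel exit, read 14.56, 14.47, 14.16 and 14.30 on visceral arrays, against 13.65, 13.59, 13.72, 13.70 and 13.72 on subcutaneous arrays. The groups were far apart and the spread small, and RPL19 had the smallest adjusted p of the members in this comparison (0.70 ± 0.10, adjusted p = 5.6e-06).

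By the probe used for each gene, members lower in visceral fat were mostly dimmer ones of the large subunit. RPL7A read 8.73, 8.78, 8.28 and 8.17 on visceral arrays of Resv animals, against 10.41, 10.29, 10.29 and 10.08 on their subcutaneous arrays, a difference of -1.78 ± 0.28 (adjusted p = 3.4e-06). RPL5 differed by -1.67 ± 0.33 (adjusted p = 1.1e-04), RPL24 by -1.64 ± 0.36 (adjusted p = 4.8e-04) and RPL32 by -1.46 ± 0.31 (adjusted p = 3.4e-04). RPL35 (-1.22 ± 0.46) and RPL7 (-1.21 ± 0.22) followed. Among 24 members with several kept probes 13 had 1 sign on all of them in Resv animals. The other probes of RPL32, dim and detected on 37 and 13 arrays, stood at 0.19 and 0.32. RPL3 stood at 0.51 on its bright probe and at -1.95 on a dimmer one, detected on all 45 arrays. RPL29 stood at 1.15 and 1.39 on its dim probes. How far the direction followed the brightness of the probe was not tested. Of the 11 measured proteins of the small-subunit head, a list chosen with earlier results known, 7 were higher and 0 lower in visceral fat of Resv animals. The HFS animals gave 2 higher and 0 lower. In HFS animals RPL5 (-0.86 ± 0.31, adjusted p = 0.0466) and RPS7 (-0.55 ± 0.19, adjusted p = 0.0361) were the 2 that fell.

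Bright members leaned further to visceral fat than other bright genes. Among members over 12 in mean level 22 of 39 were higher and 2 lower in visceral fat of Resv animals (median 0.51), while other genes that bright gave 42 higher and 103 lower of 308 (median -0.20). All 17 members that passed in HFS animals also passed in Resv animals, in the same direction, and made up 47.2% of that list. Over all genes the shared calls were 62.9% of the HFS list and 32.9% of the Resv list. The 2 comparisons share no array, but they share the array sets. In the 4 animals with both depots, 1 Resv, 2 HFS and 1 SD animal, RPS26 and RPL10A were higher and RPL7A, RPL5 and RPL24 lower in visceral fat in every animal. The test of the difference between the comparisons passed for RPS3, with the limits given above.

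**Figure D5:**
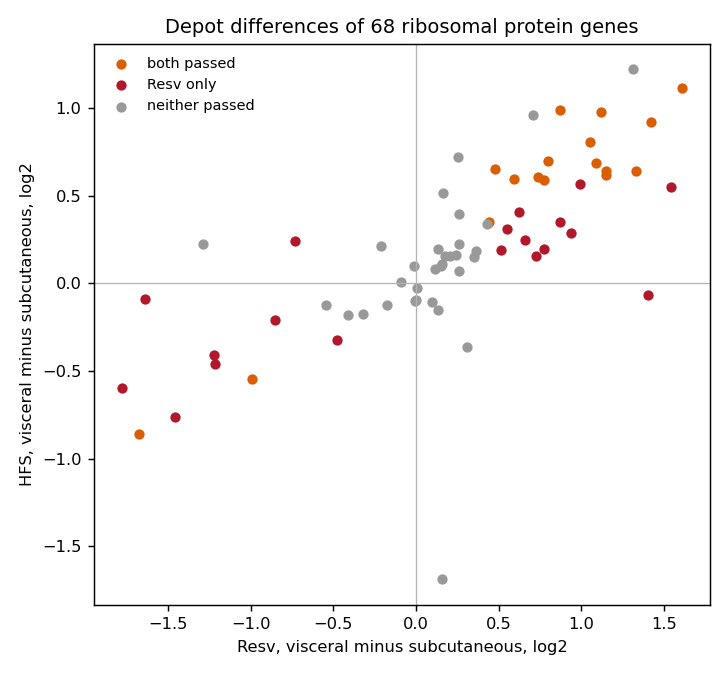
Visceral minus subcutaneous difference in log2 intensity in Resv animals (horizontal axis) and in HFS animals (vertical axis) for 68 ribosomal protein genes, coloured by the comparisons in which they passed. All 17 genes that passed in both lie in the same direction in both.

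Markers of other cell types differed between the depots too, where 20.1% of all genes were higher and 15.8% lower in Resv and 11.2% higher and 7.52% lower in HFS animals. Of 7 mesothelial markers 4 were higher in visceral fat of Resv animals and 3 in HFS animals. The mean level of the list was 6.11 to 6.84 on visceral and 4.99 to 5.31 on subcutaneous arrays of Resv animals, and MSLN and KRT19 were detected on 8 of 8 visceral arrays and on 0 of 9 subcutaneous arrays of the 2 diets. Of 7 fibroblast markers 3 were lower in visceral fat of each group, and 5 of 7 T and NK markers were higher in HFS animals. Their part in the depot differences was not tested.

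Other genes of the translation machinery went both ways, in counts to be read against those shares of all genes. Of 19 measured translation factors and other TOP mRNAs 6 were higher and 1 lower in visceral fat of Resv animals, and 5 were higher and 2 lower in HFS animals. EEF1B2, an exchange factor of elongation, was higher by 1.001 ± 0.125 in Resv and by 0.84 ± 0.12 in HFS animals, while EEF2, the translocase, differed by -1.96 ± 0.39 and -1.16 ± 0.37. FAU, which encodes a small-subunit protein fused to a ubiquitin-like one, was higher by 0.78 ± 0.18 in Resv and 0.53 ± 0.17 in HFS animals. Of 25 ribosome assembly genes 7 were higher and 5 lower in Resv, and of 13 genes of the TOR pathway 3 were higher and 2 lower. Of the mitochondrial ribosomal proteins, 68 in number, 2 were higher and 0 lower in Resv than in HFS in subcutaneous fat at 24 months, or 2.94%, against 2.23% of all genes. Of 9 measured Diamond-Blackfan genes 2 were lower there, against 0.272% of all genes. They were RPS19 and RPS10, already counted above, and neither passed without Resv replicate 4 or with median scaling.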

How the data were processed

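The authors deposited average bead intensities and, per the file headers, a detection p-value for each of 47323 human probes on 45 arrays, exported with GenomeStudio 1.9.0 per the submitters' processing notes and not scaled between arrays. A second deposited table holds a score, which differed from the standardized log2 intensity by at most 0.0049, and a probe list gave the symbols. Empty probes (92) were left out.

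Intensities were normalized with neqc (offset of 16) of limma 3.58.1 in R 4.3.3. Per gene the probe with the highest mean was used. Fits covered 10 visceral arrays (11657 genes), 35 subcutaneous arrays (12130) or all 45 (12917), with 1 mean per group, lmFit and eBayes with a variance trend. The p-values are two-sided and Benjamini-Hochberg adjusted, across all genes tested, within each of 11 comparisons. The scripts were tested on simulated data. The number of arrays limits the precision, and a group of 2 arrays takes its spread from the others.

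Members and gene lists were chosen with earlier results of these data known. Per comparison the naming rule took the 6 largest rises and 6 largest falls among passing members, or the 3 smallest p-values of a direction where fewer than 3 passed, with 8 fixed genes and the paralogs. Alternatives were another threshold, normalizations, filters, probe means, samples, weights, covariates, blocks and single arrays left out. Of 11 pairs of arrays with 1 replicate number over time 9 were of 1 animal, with correlations between 0.097 and 0.48, of which 8 exceeded 0.1. The pairs of different animals stood at -0.33 and -0.01. Numbers were therefore not taken to pair samples, and the animal in the column name was used. No other columns of sample values were used, and no sequences were used here.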

Additional observations from a re-analysis of the deposited data

Results flagged for a closer look

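A single array stood apart from the others of its group in 9 of 91 sets of values, over 12 genes and the members' median. A chance rate of about 1 in 20 holds for genes picked without regard to their values. The 12 genes were picked from those named above, so the count cannot be read against that rate. Resv replicate 4 of subcutaneous fat at 24 months was lowest for RPS19, at 12.76 against 13.28 for the next, for RPL24, at 6.82 against 7.42, and for RPL36, at 10.18 against 11.60. HFS replicate 1 of the same fat was highest for RPL24, at 7.04 against 5.997, and Resv replicate 1 for RPL14, at 7.89 against 5.83. In visceral fat Resv replicate 3 was highest for RPL36, at 12.95 against 12.84, and for RPL14, at 6.19 against 4.55, and lowest for RPLP2, at 9.45 against 14.11. HFS replicate 1 of visceral fat was highest for RPL18, at 12.08 against 9.76. For RPLP2, RPL14 and RPL18 the animals of these arrays stood on the same side of the gap at baseline. The animal of visceral Resv replicate 3 read 10.79 for RPLP2 and 7.31 for RPL14 then. The animal of visceral HFS replicate 1 read 12.38 for RPL18, and that of subcutaneous Resv replicate 1 read 7.98 for RPL14.

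Groups differed in their effect for 2 members. The change of RPS19 over time was -0.77 in Resv minus HFS, and the Resv effect on RPS3 was 1.47 in visceral minus subcutaneous fat. Of the fits that left out 1 array RPS19 passed in 8 of 9 and RPS3 in 9 of 17. Neither passed with median scaling or without Resv replicate 4 of subcutaneous fat at 24 months.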

How the results depend on the processing

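In subcutaneous fat at 24 months, Resv against HFS, the 3 members passing became 5 at an adjusted p under 0.1, 25 with the deposited scores, 6 with array weights, 8 with the array set as a term and 0 with detected probes as a covariate, and 0 to 3 with 1 array left out. Their median of -0.16 became 0.16 with median scaling and -0.66 with the scores (-0.23 to -0.05 with 1 array left out). Over time in Resv the 11 passing became 17 at 0.1, 4 with median scaling, 25 with the scores, 23 with weights, 0 with the covariate, 4 with the replicate block, 4 with the array set, 1 in 1 array set, 3 with the animal as a fixed block and 4 to 10 with 1 array left out, and the median of -0.16 became -0.46 with the scores. Over time in HFS the 0 passing became 2 at 0.1, 1 with the scores, 1 in a fit of all 45 arrays, 4 with weights, 1 with the covariate, 1 with the animal as a random block and 2 with the array set, and the median of 0.07 became -0.33 with median scaling and 0.37 with the scores. For the change over time, Resv minus HFS, the 1 passing became 2 with median scaling, 24 with the scores, 3 with weights, 0 with the covariate, 2 with the random block, 3 with the array set, 0 in 1 array set, 0 with the fixed block and 0 to 2 with 1 array left out, and the median of -0.17 became 0.25 with median scaling and -0.80 with the scores.

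In visceral fat, Resv against HFS, the 0 passing became 2 with only the arrays compared, 5 with weights and 0 to 1 with 1 array left out, and the median became -0.27 with the scores. HFS against SD kept 0 passing under each alternative, with a visceral median of 0.15 with the scores and a subcutaneous one of -0.083 to 0.27 with 1 array left out. Between depots in HFS the 17 became 6 with the scores, 26 with only the arrays compared and 11 to 16 with 1 array left out, with a median of 0.60 with median scaling. In Resv the 36 became 22 with median scaling, with a median of 0.425 with the scores and of 0.17 to 0.41 with 1 array left out. For the difference of the Resv effect between depots the 1 passing became 6 at 0.1, 2 without background correction, 3 with the scores, 3 with only the arrays compared, 8 with weights, 2 with the replicate block, 5 with the array set and 0 to 5 with 1 array left out, with a median of -0.28 with median scaling and 0.45 with the scores.

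The counts under alternatives are given without the share of all genes passing under the same alternative, so they describe the members only. The replicate block changed no other count of calls by over 1.5 times. The set of 24-month arrays alone and the animal as a fixed block were chosen after seeing the data. Single members turned sign in 4 cases, none passing: RPL7A over time in HFS with median scaling (-0.018), RPS10 of HFS against SD in visceral fat with the scores (0.084), and RPL10A over time in HFS with the scores (0.022) and in 1 array set (0.014). The cause of these differences was not tested. Probes of 1 gene often disagreed in sign: of 16 members with several probes that passed between depots in Resv, 10 had probes of 1 sign, and over time in Resv 1 of 4.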
